A study of Homo sapiens with 18 samples.

Results

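The chromosomal passenger complex and its partner mitotic kinases were followed as 9 genes among the 55765 gene rows of an RNA-seq table from G401 cells, a malignant rhabdoid tumour line. The genes were taken by name, with earlier results of these data known. AURKB, INCENP, BIRC5 and CDCA8 encode the passenger complex, and AURKA, PLK1, TTK, BUB1 and NEK2 encode kinases that work beside it in mitosis. The 18 libraries form 6 groups of 3 biological replicates. The WT line is wild type for RB1 and was edited at the AAVS1 safe harbour site, and whether it is a single clone is not stated. E1 and F2 are 1 clone each, in which CRISPR/Cas9 editing hit both RB1 alleles and no RB1 protein was seen on immunoblots, per the series' text. Loss of RB1 and other differences between clones cannot be told apart from these lines alone. Each line received 10 µM tazemetostat or the same volume of DMSO for 11 days. Tazemetostat inhibits EZH2, the histone methyltransferase of the Polycomb repressive complex.

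Cells build the passenger complex to correct faulty chromosome attachments and to complete cytokinesis. Aurora B is its kinase, INCENP is the scaffold that activates the kinase, and survivin (BIRC5) and borealin (CDCA8) anchor the complex at centromeres. Genes of this kind are transcribed mainly in G2 and mitosis and are held low in resting cells by the RB family and the DREAM complex, which contacts the cell cycle genes homology region (CHR) and works with CCAAT boxes at many such promoters. Rhabdoid tumours are defined by loss of SMARCB1, a subunit of the SWI/SNF remodeller that opposes Polycomb, and EZH2 inhibitors are used against tumours with that loss.

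Promoter sequence is shown because these genes moved together and because CHR and CCAAT words are the letters by which late cell cycle promoters are usually recognised. RefSeq windows on build GRCh38.p14, from 250 bases before to 50 bases after the annotated start, matched 6 of the 9 genes. No window was used here for AURKA, BIRC5 and TTK. The 150 bases before the start are printed for 5 of the genes, 5′ to 3′ along the gene, with TTTGAA and CCAAT in capitals. Where the latter word lies on the other strand, it reads ATTGG. The stretches are chr1:37692366-37692515 on the plus strand for CDCA8, chr16:23678739-23678888 on the plus strand for PLK1, chr11:62123861-62124010 on the plus strand for INCENP, chr2:110678064-110678213 on the minus strand for BUB1 and chr1:211675622-211675771 on the minus strand for NEK2. 
CDCA8: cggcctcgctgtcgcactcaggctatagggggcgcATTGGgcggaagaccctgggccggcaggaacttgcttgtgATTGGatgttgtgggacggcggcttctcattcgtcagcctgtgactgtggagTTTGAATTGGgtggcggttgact
PLK1: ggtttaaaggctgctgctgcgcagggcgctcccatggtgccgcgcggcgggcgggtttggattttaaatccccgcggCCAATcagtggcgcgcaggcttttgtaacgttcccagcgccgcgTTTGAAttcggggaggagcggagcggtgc
INCENP: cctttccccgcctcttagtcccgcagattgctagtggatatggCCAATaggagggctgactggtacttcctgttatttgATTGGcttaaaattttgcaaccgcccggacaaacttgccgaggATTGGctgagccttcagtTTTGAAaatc
BUB1: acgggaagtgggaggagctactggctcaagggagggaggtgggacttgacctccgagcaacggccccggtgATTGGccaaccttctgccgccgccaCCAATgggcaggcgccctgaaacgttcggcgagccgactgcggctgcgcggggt
NEK2: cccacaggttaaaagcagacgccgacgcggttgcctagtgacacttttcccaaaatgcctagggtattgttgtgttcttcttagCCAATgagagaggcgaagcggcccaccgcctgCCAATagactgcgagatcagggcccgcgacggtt
The word TTTGAA began 23 bases before the start in CDCA8, 29 bases before it in PLK1 and 10 bases before it in INCENP, and in CDCA8 it shares 1 base with an ATTGG. BUB1 held the variant TTCGAA 2 bases past its start, beyond the printed stretch. With both strands searched, TTTGAA or TTCGAA lay in the windows of 4 of the 6 genes and in those of 19.54% of all 27305 genes in the table. CCAAT lay in the windows of 6 of 6, NEK2 and AURKB included, and in 39.72% of all genes. None of the 6 held TTTCGCGC, TTTGGCGC, TTTCCCGC or TTTGCCGC, words of the E2F type found in 3.99% of all genes. Among listed genes described below that had a window, CCAAT lay in 83.33% of the cyclin, phosphatase and anaphase-promoting complex genes. Its share was 71.43% for activators, anchors and substrates and 50.0% for other mitotic kinases. It was 45.45% for late cell cycle regulators and 0.0% for other genes with the BIR domain of survivin. For TTTGAA or TTCGAA the shares were 50.0%, 50.0%, 41.67%, 45.45% and 0.0% in that order. These are matches of letters and not tests of binding.

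Depth, recovered from the steps of the values, was 25709489 to 39314860 reads per library, and each of the 9 genes had at least 520 reads in every library. SMARCB1 had 0 reads in all 18 libraries. RB1 messenger RNA was present in the clones at normalized counts of up to 1045, below the lowest WT library at 2300. In E1 it ran from 504.9 to 780.3 with DMSO and from 939.0 to 1044.9 with tazemetostat (log2 change 0.61, limma adjusted p = 0.00011). The RB1 change was 0.16 in F2 (limma adjusted p = 0.22) and -0.12 in WT (adjusted p = 0.33). Its response in E1 differed from that in WT by 0.74 (limma adjusted p = 0.001), and that in F2 by 0.28 (adjusted p = 0.18). PTPRC and CD3E, markers of blood cells, had no more than 2 reads in any library, and PECAM1 was not matched to a row. KRT5, an epithelial keratin, had 0 reads in every DMSO library and normalized counts of 712 to 839 in WT, 481 to 534 in E1 and 2392 to 2820 in F2 under tazemetostat. EPCAM, another epithelial marker, was scarce, at normalized counts of up to 19.5, and went the other way: it was lower with the drug in E1 (log2 change -1.37, limma adjusted p = 0.005) and F2 (-1.14, adjusted p = 0.015) and at -0.29 in WT (adjusted p = 0.5). Summed over the 6 listed markers of other cell types that had a row, the levels ran from 8.0 to 20.6 in the DMSO libraries and from 494.2 to 2857.4 under tazemetostat, nearly all of it KRT5. KRT5 thus moved with treatment in all 3 lines, and its part in the results was not tested.

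The whole set was lower with tazemetostat in WT cells. All 9 genes were lower with the drug, to between 34.8% of the DMSO mean for BIRC5 and 60.9% for AURKA, and the treated and untreated libraries did not overlap for any of them. In limma, 7 of the 9 were past the threshold, an adjusted p under 0.05 with a log2 change of at least 1 in size. Of all 16154 tested genes, 6.77% were lower by that rule and 32.9% had groups that did not overlap in that direction, while 14.5% were higher by the threshold. The median log2 change of the 9 was -1.09, beside 0.03 over all tested genes. In bulk RNA, fewer cells in mitosis and less RNA per cell cannot be told apart.

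AURKB, the catalytic subunit, had normalized counts of 2991, 3157 and 3008 in WT with DMSO and of 1171, 1133 and 1137 with tazemetostat. In E1 it was at 2641, 3583 and 2331 with DMSO and at 2676, 2474 and 2463 with the drug. In F2 the values were 3879, 3950 and 3901 with DMSO and 3501, 3491 and 3241 with the drug. The treated WT libraries therefore lay below every other library, whereas the E1 groups overlapped and the F2 groups were apart by much less than those of WT. The log2 change in WT was -1.41 (SE 0.10, limma adjusted p = 5.6e-10), against -0.15 in E1 (adjusted p = 0.26) and -0.20 in F2 (adjusted p = 0.11). E1 with DMSO was the noisiest group for AURKB, with a log2 SD of 0.319, and its replicate 2 was the high library.

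BIRC5, whose product survivin is also an inhibitor of apoptosis, had the largest change of the 9 genes in WT. Its normalized counts there were 3392, 3408 and 3068 with DMSO and 1219, 1225 and 994 with tazemetostat, which is -1.53 on the log2 scale (SE 0.10, limma adjusted p = 2.2e-10). In E1 they were 3218, 4129 and 2937 with DMSO and 2557, 2851 and 2697 with the drug. In F2 they were 4021, 3873 and 3559 with DMSO and 3193, 3117 and 3225 with the drug. Treated libraries were below untreated ones in all 3 lines, by far the most in WT. The log2 changes in the clones, -0.33 in E1 (limma adjusted p = 0.013) and -0.26 in F2 (adjusted p = 0.039), were under the fold limit. The E1 value had an adjusted p of up to 0.086 in 3 of 28 other settings, among them the fits without E1 DMSO replicate 2 and without E1 tazemetostat replicate 1, and the F2 value one of up to 0.13 in 6 of 28, 5 of which each left out 1 F2 library: DMSO replicate 1 or 2, or any of the treated ones.

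INCENP and CDCA8, the scaffold and the borealin subunit, had smaller changes than their kinase in WT and changed little in the clones. INCENP was at 2547, 2640 and 2512 in WT with DMSO and at 1349, 1393 and 1238 with the drug. Its log2 change of -0.95 (SE 0.07, limma adjusted p = 2e-09) was just under the fold limit, although the groups did not overlap. In the clones INCENP ran from 2166 to 2708 over the 6 E1 libraries and from 3464 to 3947 over the 6 F2 libraries, with log2 changes of 0.02 and 0.05 whose groups overlapped. CDCA8 was at 3555, 3646 and 3391 in WT with DMSO and at 1749, 1832 and 1623 with the drug, or -1.03 on the log2 scale (SE 0.06, limma adjusted p = 1.1e-11). That change is close to the limit, and without WT tazemetostat replicate 3 it was -0.98. CDCA8 changed by 0.06 in E1 and 0.03 in F2 on the log2 scale, with overlapping groups.

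**Figure D1:**
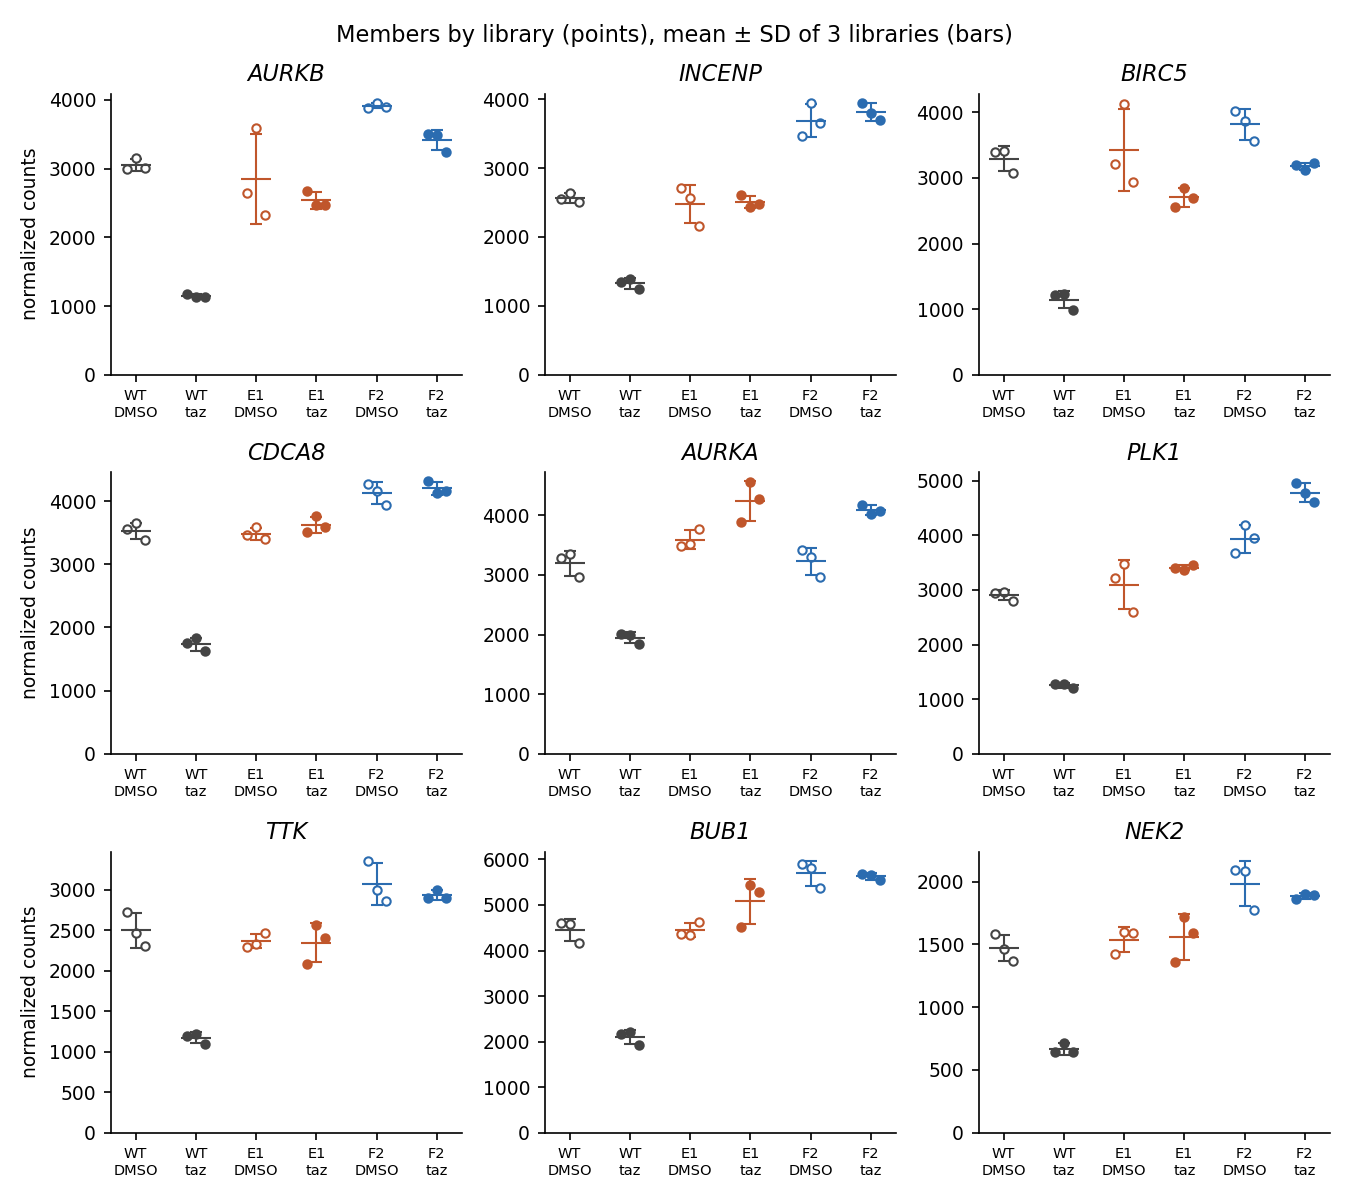
Normalized counts (vertical axis, from 0) of the 9 genes in each of the 6 groups (horizontal axis). Points are libraries, open for DMSO and filled for tazemetostat, and bars are the mean ± SD of 3. In every panel the treated WT libraries sit below the other 15.

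AURKA, the spindle pole kinase that matures centrosomes, stood apart from the passenger complex. In WT it was at 3292, 3343 and 2959 with DMSO and at 2005, 1992 and 1846 with tazemetostat. In E1 it was at 3483, 3511 and 3778 with DMSO and at 3884, 4561 and 4279 with the drug. In F2 it was at 3412, 3306 and 2972 with DMSO and at 4181, 4018 and 4065 with the drug. It was thus lower with the drug in WT and higher in both clones, with no overlap in any line. The log2 changes were -0.71 in WT (SE 0.07, limma adjusted p = 5.1e-08), 0.24 in E1 (adjusted p = 0.0094) and 0.34 in F2 (adjusted p = 0.00045), all 3 under the fold limit. The E1 value had an adjusted p of up to 0.073 in 2 of 28 other settings, 1 of which was the fit without E1 tazemetostat replicate 2, and the F2 value stayed under 0.05 in all 28.

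PLK1, which drives mitotic entry, spindle assembly and cytokinesis, had the widest spread between lines under the drug. In WT it was at 2942, 2972 and 2800 with DMSO and at 1285, 1281 and 1203 with tazemetostat. In E1 it was at 3228, 3467 and 2602 with DMSO and at 3402, 3367 and 3457 with the drug. In F2 it was at 3678, 4196 and 3945 with DMSO and at 4964, 4784 and 4606 with the drug. The drug groups were apart from DMSO downwards in WT and upwards in F2, and overlapped DMSO in E1. The log2 changes were -1.21 (SE 0.08, limma adjusted p = 2e-10) in WT, 0.15 (adjusted p = 0.15) in E1 and 0.28 (adjusted p = 0.0067) in F2, the last under the fold limit. PLK1 overlaps ERN2 on the opposite strand in the annotation, and ERN2 had 9 to 51 reads.

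TTK and BUB1, the checkpoint kinases that hold anaphase until chromosomes are attached, lost about the same share in WT. TTK was at 2726, 2473 and 2301 in WT with DMSO and at 1201, 1225 and 1096 with the drug, or -1.09 on the log2 scale (SE 0.08, limma adjusted p = 1e-09). BUB1 was at 4608, 4581 and 4171 with DMSO and at 2177, 2219 and 1927 with the drug, or -1.08 on the log2 scale (SE 0.07, limma adjusted p = 2e-10). In the clones both genes had similar levels with and without the drug. TTK ran from 2083 to 2561 over the 6 E1 libraries and from 2860 to 3361 over the 6 F2 libraries, with overlapping groups in both. BUB1 was at 4362, 4343 and 4620 in E1 with DMSO and at 4516, 5439 and 5280 with the drug, groups that overlap. Its log2 change in E1 was 0.19 (limma adjusted p = 0.04), an adjusted p that was as high as 0.17 in 7 of 28 other settings, 4 of which were fits without 1 E1 library (DMSO replicate 1 or 2, tazemetostat replicate 2 or 3). In F2 BUB1 ran from 5371 to 5889 over the 6 libraries.

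NEK2, the kinase that dissolves the linker between centrosomes, was the least abundant of the 9. It was at 1582, 1466 and 1372 in WT with DMSO and at 643, 718 and 640 with tazemetostat, or -1.14 on the log2 scale (SE 0.09, limma adjusted p = 1.6e-09). In E1 it ran from 1362 to 1722 and in F2 from 1778 to 2093 over the 6 libraries of each clone. Treated and untreated libraries overlapped in both clones, where the log2 changes were 0.01 and -0.07.

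**Figure D2:**
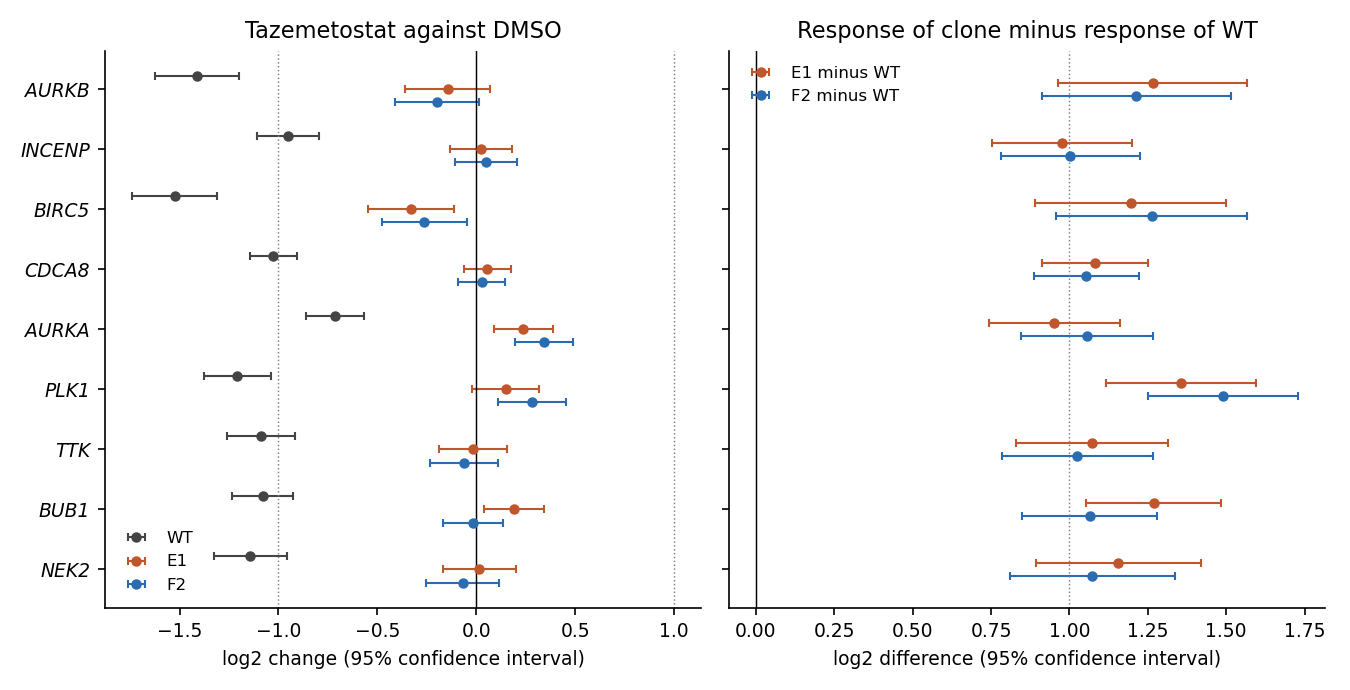
Log2 change with tazemetostat in each line (left) and the response of each clone minus that of WT (right) for the 9 genes, with 95% confidence intervals from limma and dotted lines at a log2 change of 1 in size. WT lies between -1.53 and -0.71, the clones lie between -0.33 and 0.34, and all differences from WT lie between 0.95 and 1.49.

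No fall of the set with tazemetostat was called in the RB1-null clones. In E1, 0 of 9 genes were past the threshold in limma, and 3 had an unadjusted p under 0.05. In edgeR and DESeq2, 0 were past the threshold and 3 were called by adjusted p alone in each. In F2 the counts were the same: 0 past the threshold and 3 at an unadjusted p under 0.05. Both edgeR and DESeq2 had 0 past the threshold in F2 and 3 by adjusted p alone. Of all tested genes, 3.78% were lower and 11.3% higher in E1, and 3.71% lower and 13.3% higher in F2. By adjusted p alone, BIRC5 was lower in both clones, AURKA was higher in both, BUB1 was higher in E1 and PLK1 was higher in F2. Adjusted p alone called 19.7% of all tested genes lower and 27.1% higher in E1, and 23.2% lower and 29.0% higher in F2. The median log2 change of the 9 was 0.02 in E1 and -0.02 in F2, beside 0.03 (E1) and 0.02 (F2) over all tested genes.

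Without the drug, E1 differed little from WT. None of the 9 genes was past the threshold or had an adjusted p under 0.05 between E1 and WT in DMSO, AURKA alone had an unadjusted p under 0.05, and edgeR and DESeq2 also called 0. The log2 differences ran from -0.12 for AURKB to 0.17 for AURKA, and 2.69% of all tested genes were lower and 2.35% higher in E1 (11.7% and 11.4% by adjusted p alone). F2 carried more of most of these messages. In F2 against WT in DMSO, 0 of 9 were past the threshold in limma, edgeR or DESeq2, and 7 had an unadjusted limma p under 0.05. In limma, 2.09% of all tested genes were past the threshold lower and 0.885% higher. Of the 9, 7 were higher by limma's adjusted p alone, beside 8.10% of all tested genes. By adjusted p alone, edgeR and DESeq2 each called 7 too. INCENP had the largest difference, with F2 at 143.7% of WT (log2 difference 0.52, limma adjusted p = 6.5e-05), followed by PLK1 at 135.6% (log2 difference 0.44, adjusted p = 0.00074). BIRC5 at 116.1% (adjusted p = 0.15) and AURKA at 101.0% (adjusted p = 0.93) were the 2 others. The AURKB difference reached an adjusted p of 0.062 when WT DMSO replicate 1 or F2 DMSO replicate 2 was left out, and the TTK difference one of up to 0.077 in 4 of 28 settings, among them the fits without WT DMSO replicate 2, WT DMSO replicate 3 or F2 DMSO replicate 1.

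With the drug, every member was higher in both clones than in WT. Between E1 and WT, 7 of 9 were past the threshold, where 5.40% of all tested genes were higher. INCENP, at a log2 difference of 0.92, and TTK, at 0.996, were just under the fold limit. The E1 means were 189.1% (INCENP) to 271.3% (PLK1) of the WT means. Between F2 and WT, 9 of 9 were past the threshold, where 7.31% of all tested genes were higher, and the F2 means were 209.9% (AURKA) to 380.8% (PLK1) of the WT means. For all 9 genes the treated libraries of each clone lay above those of WT without overlap, as did 28.9% of all tested genes in E1 and 32.6% in F2.

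The difference in response was tested itself, as the log2 change in a clone minus the log2 change in WT. In E1, 7 of 9 genes passed, where 4.79% of all tested genes passed in that direction. INCENP, at 0.98, and AURKA, at 0.95, were under the fold limit with limma adjusted p of 1.2e-06 and 8.3e-07. In F2, 9 of 9 passed, where 4.82% of all tested genes did. PLK1 had the largest difference in both clones, 1.36 in E1 (SE 0.11, limma adjusted p = 6.2e-08) and 1.49 in F2 (SE 0.11, adjusted p = 3.6e-08). The WT libraries are shared by both differences, so that the clones do not supply independent tests of the WT response. Several F2 values lie close to the limit: without F2 DMSO replicate 3, the count of genes past the threshold was 5, with INCENP at 0.997, AURKA at 0.997, TTK at 0.976 and NEK2 at 0.996. That library is the shallowest of the 18, at 25709489 reads, and 8 of the 9 genes were below their group mean in it. Other libraries mattered too: over the 18 fits leaving out 1 library, INCENP was under the limit in 5 (lowest 0.953) and TTK in 3 (lowest 0.9615).

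**Figure D3:**
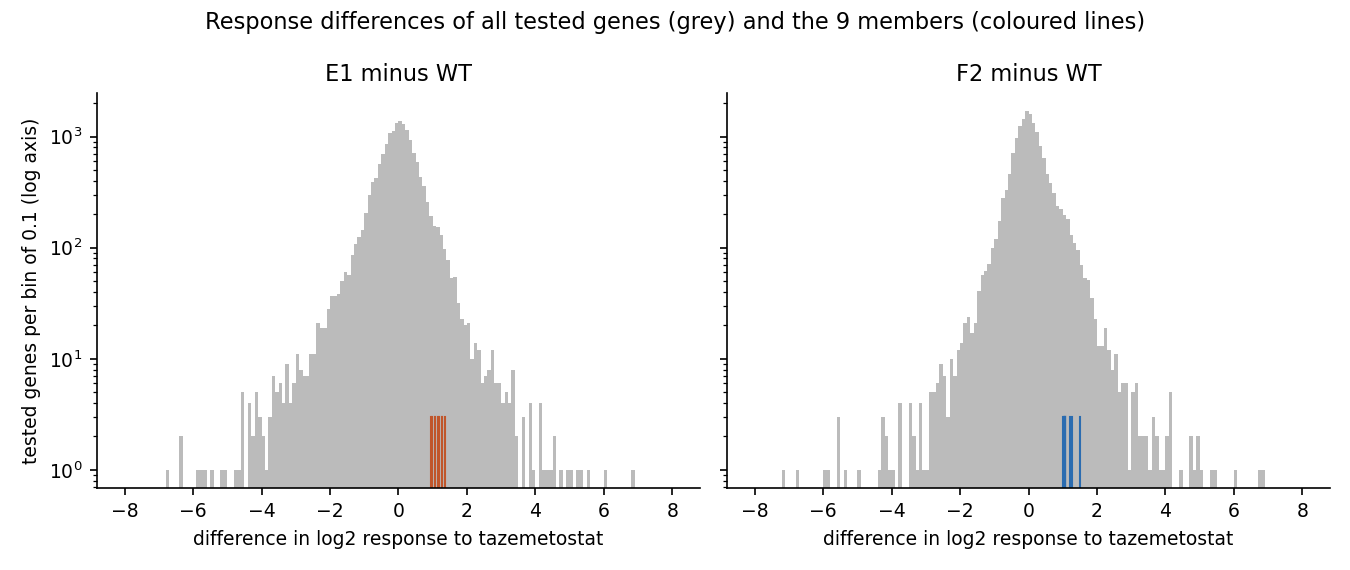
Histogram of the response difference of all tested genes (grey, bins of 0.1, log vertical axis) for E1 minus WT and F2 minus WT, with a coloured line for each of the 9 genes. The 9 lines lie together between 0.95 and 1.49, to the right of the bulk of genes around 0.

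E1 and F2 differed in level but not detectably in response. In DMSO, 7 of 9 genes were lower in E1 than in F2 by limma's adjusted p alone, beside 17.7% of all tested genes. By that rule edgeR and DESeq2 also called 7 each, and 8 had an unadjusted limma p under 0.05. Past the threshold were 0 of 9 in all 3 tools, beside 3.52% of all tested genes downwards and 4.05% upwards in limma. INCENP was the most different, at -0.58 on the log2 scale (limma adjusted p = 7.5e-06). With only the compared groups in the fit, AURKB and PLK1 had adjusted p of 0.10 and 0.11 in DMSO. Under tazemetostat, 6 of 9 were lower in E1 by limma's adjusted p alone, beside 16.6% of all tested genes. By that rule edgeR and DESeq2 also called 6 each, and 8 had an unadjusted limma p under 0.05. Again 0 of 9 were past the threshold in all 3 tools, against 4.43% of all tested genes lower and 2.39% higher in limma. NEK2 was no longer called, at an adjusted p of up to 0.10, without E1 tazemetostat replicate 1, F2 tazemetostat replicate 2 or F2 tazemetostat replicate 3. The difference in response between E1 and F2 ran from -0.13 for PLK1, with a 95% interval of -0.37 to 0.11, to 0.20 for BUB1, with an interval of -0.01 to 0.42. For none of the 9 genes was it called, at an adjusted or an unadjusted p under 0.05 in limma or at an adjusted p under 0.05 in edgeR or DESeq2, while 4.02% of all tested genes were past the threshold downwards and 1.78% upwards.

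Per kilobase of exon, AURKB was the most abundant of the 9 in all 6 groups and NEK2 the least. Lengths are the union of the exons of coding transcripts in GENCODE v29, so an order between genes holds only as far as those lengths do. In WT with DMSO, AURKB had 2319 ± 69.5 normalized counts per kilobase (SD, n = 3), CDCA8 1430 ± 52.5 and PLK1 1304 ± 41.1. BUB1 followed at 1222 ± 67.2 and AURKA at 1170 ± 76.3, and the ranges of PLK1 and BUB1 and those of BUB1 and AURKA overlapped. BIRC5 was at 1032 ± 60.2. TTK at 656 ± 56.1 and INCENP at 647 ± 16.7 had overlapping ranges, and NEK2 was at 512 ± 36.5. With tazemetostat AURKB was at 871 ± 15.9 in WT. AURKA at 713 ± 32.4 was then in the second place, although its range overlapped that of CDCA8 at 703 ± 42.7. BUB1 at 579 ± 43.2 and PLK1 at 564 ± 20.8 overlapped. BIRC5 at 360 ± 41.4, INCENP at 335 ± 20.2 and TTK at 308 ± 18 overlapped in turn, and NEK2 was at 232 ± 15.4. The same 2 places, first for AURKB and last for NEK2, were found in all groups of E1 and F2. In F2 with the drug, PLK1 at 2149 ± 80.5 came second to AURKB at 2592 ± 111.9 without overlap. In E1 with the drug, AURKA at 1552 ± 124.4 and PLK1 at 1531 ± 20.4 overlapped.

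The ratio of AURKB to AURKA was lower with the drug in WT and F2, where the groups did not overlap, in a comparison too small to reach a p of 0.05. The ratio of AURKB to AURKA per kilobase in WT was 1.887, 1.961 and 2.111 with DMSO and 1.212, 1.181 and 1.279 with tazemetostat. In F2 it was 2.36, 2.481 and 2.726 with DMSO and 1.739, 1.804 and 1.656 with the drug. In E1 it was 1.575, 2.12 and 1.282 with DMSO and 1.431, 1.126 and 1.195 with the drug, and the groups overlapped. The log2 change of the ratio was -0.70 in WT and -0.54 in F2, each with an exact two-sided permutation p = 0.1, the smallest that 3 against 3 libraries allows, and -0.38 in E1 (exact permutation p = 0.2). Within the passenger complex, the ratio of AURKB to INCENP went from 3.582 ± 0.04 to 2.61 ± 0.158 in WT (SD, n = 3; exact permutation p = 0.1). In F2 it went from 3.201 ± 0.18 to 2.694 ± 0.065, again without overlap (exact permutation p = 0.1), and in E1 the groups overlapped (exact permutation p = 0.4). CDCA8 to AURKB was higher with the drug, without overlap, in WT (0.617 ± 0.016 to 0.807 ± 0.051) and F2 (0.562 ± 0.025 to 0.657 ± 0.026), each with an exact permutation p = 0.1, and overlapped in E1 (exact permutation p = 0.3). PLK1 to TTK was apart in F2, from 2.21 ± 0.293 to 2.789 ± 0.12 (exact permutation p = 0.1), and overlapped in WT (exact permutation p = 0.2) and E1 (exact permutation p = 0.5). The ratio of BIRC5 to AURKB, the subunits with the 2 largest changes in WT, had overlapping groups in all 3 lines and was 0.445 ± 0.024 in WT with DMSO and 0.413 ± 0.045 with the drug (exact permutation p = 0.5). In all, 5 ratios were compared in 3 lines, and no p went below 0.1.

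**Figure D4:**
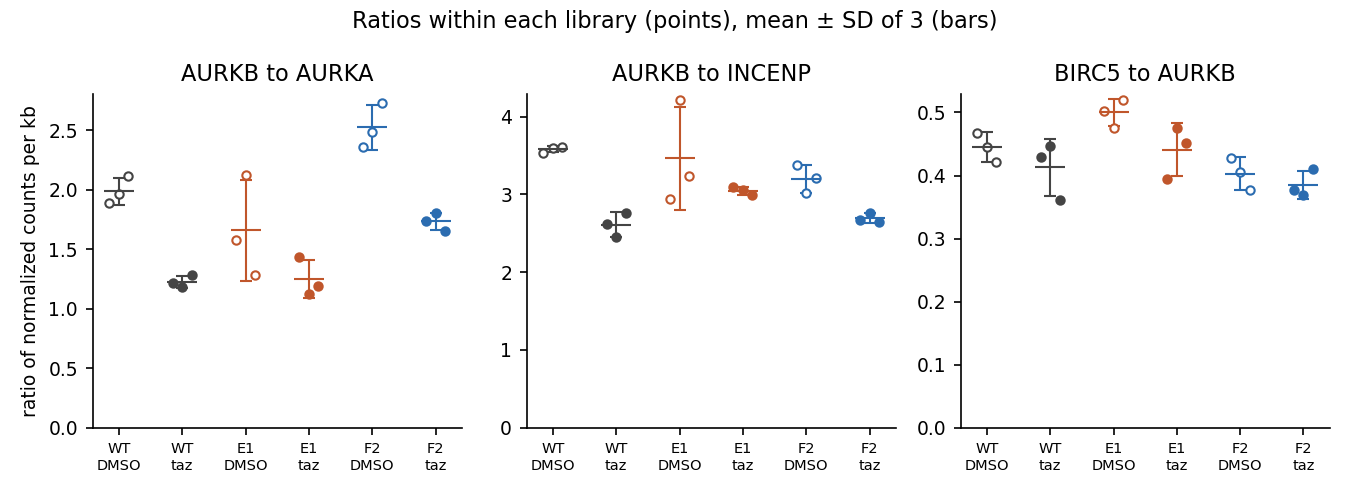
Ratios of normalized counts per kilobase (vertical axis, from 0) within each library, for 3 pairs of genes in the 6 groups. Points are libraries, open for DMSO and filled for tazemetostat, and bars are the mean ± SD of 3; AURKB to AURKA is lower with the drug in WT and F2 and overlaps in E1.

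Other genes of the pathway are described from lists. These were drawn up with earlier results of these data known, so the choice was not blind to how the genes moved. Over all tested genes, the shares past the threshold were 6.77% lower and 14.5% higher in WT, 3.78% and 11.3% in E1, and 3.71% and 13.3% in F2. Of 18 other mitotic kinases, 5 fell and 2 rose in WT by the same threshold, with a median log2 change of -0.69 beside 0.03 for all tested genes. Those that fell were PBK (log2 change -1.59), CIT, the citron kinase of cytokinesis (-1.17), CHEK1 (-1.09), BUB1B (-1.04) and PLK4 (-1.01), where CHEK1, BUB1B and PLK4 lie outside the naming rule and are given for completeness. The 2 that rose were PLK2 and PLK3, relatives of PLK1 known from stress responses. PLK2 went from 62.0, 46.2 and 46.4 normalized counts to 2833, 2840 and 2523 in WT (log2 change 5.71, limma adjusted p = 4.9e-16), and PLK3 had a log2 change of 1.05. PLK2 also rose in E1, from 16.1, 20.3 and 15.6 to 412, 518 and 431, and in F2, from 13.3, 19.7 and 14.6 to 1366, 1249 and 1534. The clones called 0 of 18 lower and only PLK2 higher. The response of PLK2 was smaller in E1 than in WT (response difference -1.08, limma adjusted p = 0.001) and than in F2 (-1.74, adjusted p = 2e-05). PLK3 was at 0.91 in E1 and 0.75 in F2, under the fold limit with groups that did not overlap. Within the Polo family, PLK1 and PLK4 thus fell in WT, where PLK2 and PLK3 rose.

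Of 20 activators, anchors and substrates of these kinases, 7 fell and 0 rose in WT (6.77% and 14.5% of all tested genes). Their median log2 change was -0.82. KIF20A, the kinesin that carries the passenger complex to the midzone, had the largest change (log2 change -1.50), and KIF2C, a microtubule depolymerase that Aurora B phosphorylates, the second largest (-1.39). AJUBA, an activator of Aurora A, had the highest value at 0.97, under the fold limit in WT, and rose in E1 (1.12) and F2 (1.41). Its normalized counts were 1156, 1169 and 1094 in WT with DMSO and 2322, 2237 and 2158 with the drug. MAD1L1 followed AJUBA at 0.39. No gene of this list was lower past the threshold in either clone, beside 3.78% of all tested genes in E1 and 3.71% in F2. By limma's adjusted p alone, 2 of 20 were lower and 3 higher in E1 (19.7% and 27.1% of all tested genes). In F2, 6 were lower and 5 higher (23.2% and 29.0%). KIF20A was at -0.10 in E1 (limma adjusted p = 0.28) and -0.44 in F2 (adjusted p = 7.1e-05). KIF2C was at -0.16 in E1 (limma adjusted p = 0.044) and -0.28 in F2 (adjusted p = 0.00083).

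Of 20 mitotic cyclins, phosphatases and genes of the anaphase-promoting complex with its substrates, 10 fell and 0 rose in WT. Over all tested genes these shares were 6.77% and 14.5%. The median log2 change of the 20 in WT was -0.84. In either clone 0 were past the threshold, which 3.78% of all tested genes passed downwards and 11.3% upwards in E1. In F2 those shares were 3.71% and 13.3%. By limma's adjusted p alone, 7 were lower and 3 higher in E1, where 19.7% of all tested genes were lower and 27.1% higher. In F2, 9 were lower and 1 higher by that rule, where 23.2% of all tested genes were lower and 29.0% higher. Cyclin A2 (CCNA2) went from 4615, 4314 and 4117 normalized counts to 1169, 1244 and 972 in WT, a log2 change of -1.95 (limma adjusted p = 4.4e-13), and cyclin B2 (CCNB2) had -1.65. In E1 and F2 the changes of CCNA2 were -0.25 and -0.38, and those of CCNB2 -0.43 and -0.55, all under the fold limit. The highest values in WT were 0.10 for both CDC16 and FZR1, which passed no test.

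**Figure D5:**
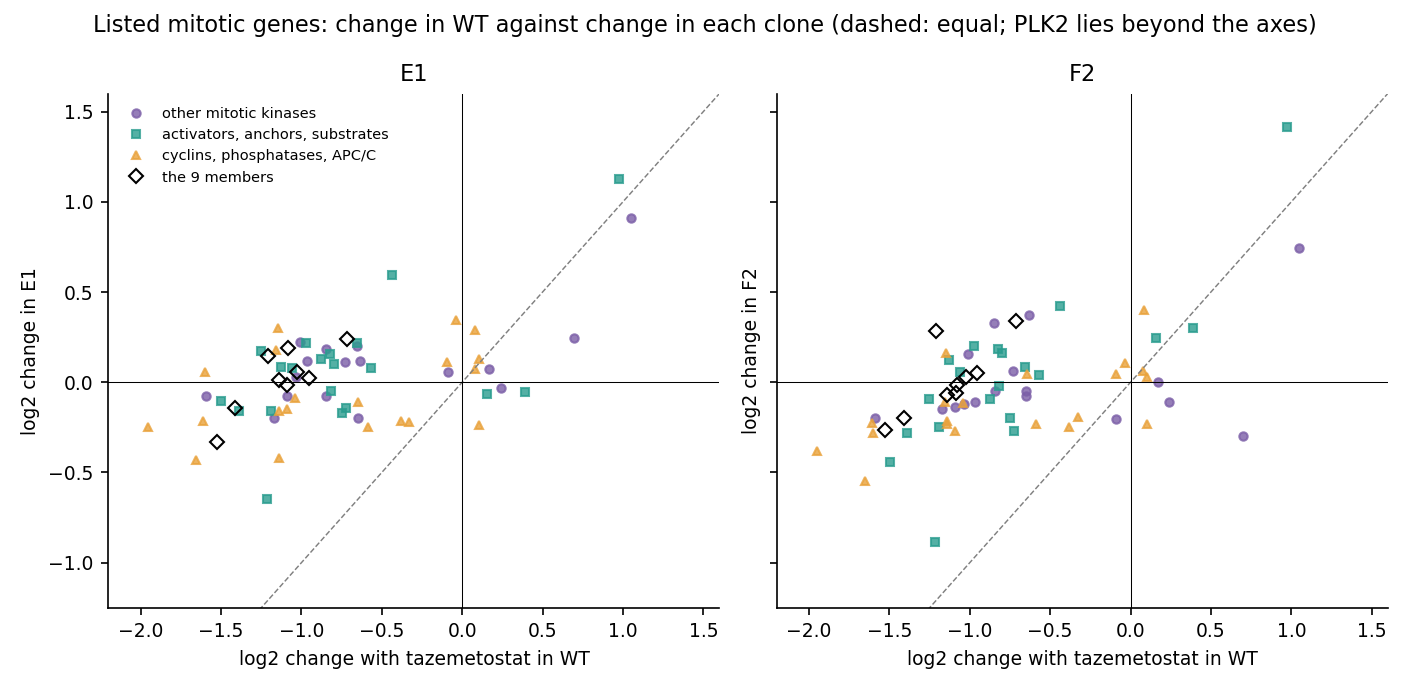
Log2 change with tazemetostat in WT (horizontal axis) against that in E1 (left) and F2 (right) for the listed genes, with the 9 genes as open diamonds and the dashed line where both changes are equal. PLK2 lies beyond the axes, at 5.71 in WT, 4.64 in E1 and 6.37 in F2. Most listed genes sit to the left of 0 and near 0 in height; WT is the axis shared by both panels.

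Of 7 other proteins with the BIR domain of survivin, 5 averaged 10 or more, and of these 0 fell and 1 rose in WT, a count near the shares of 6.77% lower and 14.5% higher over all tested genes. That gene, BIRC3, which encodes cIAP2, had 4.4, 2.8 and 7.6 normalized counts in WT with DMSO and 40.4, 36.5 and 32.0 with the drug, and was also called higher in E1 and F2. Its DMSO level is near the floor of 3 reads, so its fold is poorly set. BIRC2 (0.77) and XIAP (0.36) had the next values in WT, under the fold limit, and BIRC6 (-0.06) and BIRC7 (-0.06) the lowest. Of 13 regulators of late cell cycle transcription, 3 fell and 0 rose in WT (6.77% and 14.5% of all tested genes), with a median log2 change of -0.51. They were MYBL2, the B-MYB partner of the MuvB core (-1.59), RBL1, which encodes the RB relative p107 (-1.46), and FOXM1 (-1.46), the last outside the naming rule and chosen after its value was seen. MYBL2 was also lower in E1 (-0.47, limma adjusted p = 0.00077) and F2 (-0.33, adjusted p = 0.011), under the fold limit. Its groups did not overlap in either clone. RBL1 was lower without overlap in F2 (-0.36, limma adjusted p = 0.0035) and at 0.07 in E1 (adjusted p = 0.57). FOXM1 was at -0.15 in E1 (limma adjusted p = 0.052) and -0.12 in F2 (adjusted p = 0.12). LIN37, a MuvB subunit (0.71), and E2F5 (0.04) had the highest values in WT. By limma's adjusted p alone, 3 of 13 were lower and 3 higher in E1, near the shares of 19.7% and 27.1% over all tested genes. By that rule 5 of 13 were lower and 1 higher in F2, beside 23.2% and 29.0% of all tested genes. In E1, 0 of 13 were past the threshold. In F2, 1 was past it, TFDP2 at -1.02, which was also lower, under the fold limit, in WT (-0.78) and E1 (-0.80), and its response in F2 was not shown to differ from that in WT (difference -0.24, limma adjusted p = 0.074).

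Genes whose profile over the 6 groups was nearest to the mean of the 9 were sought among the 12975 genes whose values averaged 50 or more, by the root mean square difference of centred log2 group means. Among the 10 nearest were GTSE1 (0.044), PRC1 (0.049), TPX2 (0.05), ARHGAP11A (0.053), AC093838.4 (0.061), DEPDC1 (0.066), CENPA (0.069), PRR11 (0.07) and AC083843.1 (0.074). PRC1 is a microtubule bundler of the spindle midzone and not the Polycomb complex of that name, TPX2 activates Aurora A at the spindle, and CENPA is the centromeric histone. Among the 9 themselves, NEK2 lay closest to their mean (0.041) and AURKA farthest from it (0.243). The nearest gene to each member was KIF2C for AURKB (0.044), FIGNL1 for CDCA8 (0.043), UHRF1 for BIRC5 (0.063), AC083843.1 for INCENP (0.067) and RP11-705C15.3 for AURKA (0.079). For PLK1 it was MKI67 (0.079), for TTK BUB1B (0.037), for BUB1 DEPDC1 (0.027) and for NEK2 GTSE1 (0.05). Likeness here is over 6 group means and is a description.

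Libraries numbered 3 sat low for these genes in several groups. All 9 genes were below their group mean in WT DMSO replicate 3 and in WT tazemetostat replicate 3, by a median of 0.093 and 0.094 on the log2 scale, and 8 of 9 were below it in F2 DMSO replicate 3. WT tazemetostat replicate 3 and F2 DMSO replicate 3 are the 2 shallowest libraries. The part of depth in these deviations was not tested.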

How the data were processed

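G401 RNA was poly(A) selected and sequenced with a stranded kit and paired ends, per the labels' protocols. Trim Galore 0.4.4, STAR 2.6.0a, HTSeq, DESeq2 and build hg19 are named in the submitters' processing notes. The strand setting and the annotation used for counting are not given in the sources used here. The deposited unit is a signal: each library's gene counts over its own size factor. Values divided by the smallest step of their column were whole reads for 100% of values in every library (tolerance 0.0001). Depth limits counting precision, and other effects of depth were not tested.

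limma 3.58.1 (lmFit and eBayes with trend, R 4.3.3) was fitted on log2(value + 1) for the 16154 genes averaging 10 or more, as 1 fit of 6 group means, with Benjamini-Hochberg adjustment within each contrast. All 9 genes passed that filter. Changes are therefore differences of log2(value + 1). Past the threshold means both an adjusted p under 0.05 and a size of 1 or more in log2. Beside it ran edgeR 4.0.16 and DESeq2 1.42.0 on the recovered reads, other pseudocounts, filters and scalings, a replicate block and fits leaving out each library. Same-numbered libraries of F2 and WT in DMSO deviated together in all 3 pairs (correlations of 0.108 to 0.375, all over 0.1), which counts as pairing there. p-values measure the spread between cultures of 1 line.

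Named genes were the 9 members, in each list the 2 largest falls and 2 largest rises in WT and any gene past the threshold against its list, and the nearest profiles, 1 of which is not reported here. The members and lists were chosen with earlier results of these data known. Exon lengths came from GENCODE v29 and promoters from RefSeq, both on GRCh38. The authors' build differs, so no position of theirs was used.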

Additional observations from a re-analysis of the deposited data

Results flagged for a closer look

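The response to tazemetostat differed between each RB1-null clone and WT by the interaction term of the limma fit, given here as the log2 change in the clone minus that in WT. For E1 minus WT the differences past the threshold were 1.27 for AURKB, 1.20 for BIRC5, 1.08 for CDCA8, 1.36 for PLK1, 1.07 for TTK, 1.27 for BUB1 and 1.16 for NEK2. For F2 minus WT they were 1.21 for AURKB, 1.00 for INCENP, 1.26 for BIRC5, 1.05 for CDCA8, 1.06 for AURKA, 1.49 for PLK1, 1.03 for TTK, 1.06 for BUB1 and 1.07 for NEK2. Both sets share the WT libraries.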

How the results depend on the processing

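No direction of the 9 genes that was past the threshold reversed under any of the 11 alternatives or the 18 fits that left out 1 library. With no fold limit, the members called were 3 in E1 and 3 in F2 with tazemetostat, 7 between F2 and WT in DMSO, 7 between E1 and F2 in DMSO and 6 between E1 and F2 under the drug, in place of 0 each. Leaving out 1 library gave 5 to 9 for the response difference of F2 from WT (5 without F2 DMSO replicate 3), 6 to 7 for the drug in WT, 7 to 8 for E1 against WT under the drug and 7 to 8 for the response difference of E1 from WT. With the same total in every library, the median log2 change of all genes moved from 0.03 to -0.125 for the drug in WT. That median moved from -0.002 to 0.145 for F2 against WT under the drug and from 0.007 to 0.13 for the response difference of F2. INCENP then passed at -1.10 in WT, TTK passed between E1 and WT under the drug at 1.06, and INCENP (1.06) and AURKA (1.04) in the response difference of E1. Counts over all genes moved by over 1.5 times without the fold limit (10367 in place of 3436 for the drug in WT, 7554 in place of 2434 in E1, 8438 in place of 2745 in F2) and without the filter (5720, 4082 and 4698).

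In the fit with a replicate block, the counts past the threshold were 7, 0 and 0 for the drug in WT, E1 and F2, as without it, and the other comparisons kept theirs too. By adjusted p alone the block called 7 in place of 6 between E1 and F2 under the drug. Outside F2 against WT in DMSO, where the block changed no call, no comparison of 2 groups had all its same-numbered pairs over a correlation of 0.1. For the drug in WT the 3 correlations were all positive, at 0.05 to 0.315, and 1 was over 0.1. Of the 18 libraries, 8 correlated best with their own number.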
